A study of Rattus norvegicus with 6 samples.

Results

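The epicardium is the outer skin of the heart, and its surface is a mesothelium, a single sheet of flat epithelial-like cells of the kind that also lines the lung and the chest wall. RNA of 9 marker genes of this layer was compared between rat myocardium after coronary ligation and myocardium after a sham operation. The genes were found by symbol in a table of 32623 rat genes, and they were *Wt1*, *Tcf21*, *Tbx18*, *Aldh1a2*, *Msln*, *Upk3b*, *Upk1b*, *Lrrn4* and *Krt19*. Each symbol matched 1 row, and all 9 genes were among the 13964 genes that were tested.

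RNA sequencing covered 6 samples of WT male rats, 3 labelled Sham and 3 labelled Ischemia, all at 30 min. The labels give the same surgical protocol for all samples, with ventilation and an opening of the left chest. Tying of the left anterior descending coronary artery is described for the ischemia rats, with an electrocardiogram as the check on it. Strain, age and the piece of heart taken are not given in the sources used here, nor is it stated whether a sample was 1 animal, so that p-values measure only the spread between these samples.

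*Wt1*, *Tbx18* and *Tcf21* encode transcription factors that mark the epicardium of the embryo, and *Tcf21* is also kept by cardiac fibroblasts in the adult. *Aldh1a2* encodes a retinaldehyde dehydrogenase that makes retinoic acid, a signal the embryonic epicardium sends to the muscle beneath it. *Msln* (mesothelin), *Upk3b* and *Upk1b* (uroplakins), *Lrrn4* (a leucine-rich repeat membrane protein) and *Krt19* (a keratin of simple epithelia) are products of the differentiated surface sheet. In RNA of whole tissue, fewer cells of a type and less RNA per cell cannot be told apart.

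The samples differed in other ways that bear on these genes. Total counts were between 68529126 and 79591989 per sample. Ventricular muscle genes were present in every library, with a summed FPKM (reads of a gene scaled by its length and by library size) of 1799 to 13498 over a list of 5. The atrial light chain gene *Myl7* had 1027088, 19555 and 530082 counts in sham against 130049, 1549 and 1804 in ischemia (replicates 1 to 3 in this order, here and below). The airway secretory gene *Scgb1a1* had 18366 counts in ischemia replicate 1, 619 in sham replicate 3 and at most 11 in each other sample. The library labelled sham replicate 1 held 4 counts over 3 Y-linked genes, whereas the other libraries held 1762 to 4358. All rats are male by the labels.

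In ischemia replicates 2 and 3 the surface genes were at 0.892 FPKM or less, while *Wt1* stood at a level within the sham range in every ischemia sample. With all 6 samples none of these differences passed the test. Ischemia replicate 1 lay in between for *Upk3b*, *Upk1b*, *Lrrn4* and *Krt19*.

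*Upk3b* had the lowest fold change of the 9 genes. Its counts were 1778, 744 and 1331 in sham against 55, 0 and 8 in ischemia. Mean FPKM was 14.3 ± 6.04 (SD, n = 3) for the sham group and 0.215 ± 0.302 (SD, n = 3) for the ischemia group, a ratio of means of 66.3. The groups lay far apart, and the 0 in ischemia replicate 2 allows up to 0.0415 CPM (a count of 3 scaled by library size, counting error only). The log2 fold change was -6.02 ± 1.34 (SE), and with edgeR's quasi-likelihood test the adjusted p of 0.0504 (Benjamini-Hochberg) stood just outside the threshold of 0.05. The table places the gene at chr12:23676152-23682381 (minus strand). The genome build of the table is not given in the sources used here.

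*Upk1b*, a tetraspanin that partners other uroplakins in urothelium, followed the same order of samples. It had 1367, 653 and 1192 counts in sham against 302, 0 and 30 in ischemia, or a mean FPKM of 7.63 ± 2.87 against 0.733 ± 1.08 (SD, n = 3). All ischemia samples were below all sham samples, with replicate 1 closest to sham. Its log2 fold change was -3.39 ± 1.54 (SE; edgeR adjusted p 0.180). The row of this gene spans chr11:64522130-64553228 (plus strand).

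*Lrrn4* had 1495, 725 and 715 counts in sham against 264, 19 and 12 in ischemia. FPKM was 4.99 ± 2.30 against 0.468 ± 0.672 (SD, n = 3), again with no overlap and with ischemia replicate 1 nearest to sham. Its log2 fold change was -3.45 ± 1.18 (SE; edgeR adjusted p 0.110). The table lists it at chr3:125523781-125533600 (minus strand).

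*Krt19* had 2013, 836 and 1394 counts in sham against 293, 4 and 0 in ischemia. In FPKM, sham stood at 19.1, 7.46 and 13.9 and ischemia at 2.57, 0.0363 and 0. The samples did not overlap, and the log2 fold change was -3.98 ± 1.78 (SE; edgeR adjusted p 0.176). Its row lies at chr10:88055841-88060561 (minus strand), where another keratin gene, *Krt14*, overlaps it on the same strand, so that reads of the shared stretch are uncertain. *Krt14* was low, at a mean FPKM of 0.377.

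*Msln*, the most abundant of the 9 genes per length in sham, split the ischemia samples. Its FPKM was 51.8, 22.4 and 34.4 in sham against 22.4, 0.892 and 0.549 in ischemia. Ischemia replicate 1 was thus at the level of sham replicate 2. The groups were separated only narrowly, with 49.8 against 60.6 CPM after scaling by trimmed mean of M-values. That gap rests on the scaling, since ischemia replicate 1 held 4027 of 79591989 counts and sham replicate 2 held 3965 of 78512188. The other ischemia samples held 147 and 86 counts against 3965 to 8610 in sham. The log2 fold change was -2.22 ± 1.36 (SE; edgeR adjusted p 0.290). The row of this gene spans chr10:15119663-15125408 (minus strand).

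**Figure D1:**
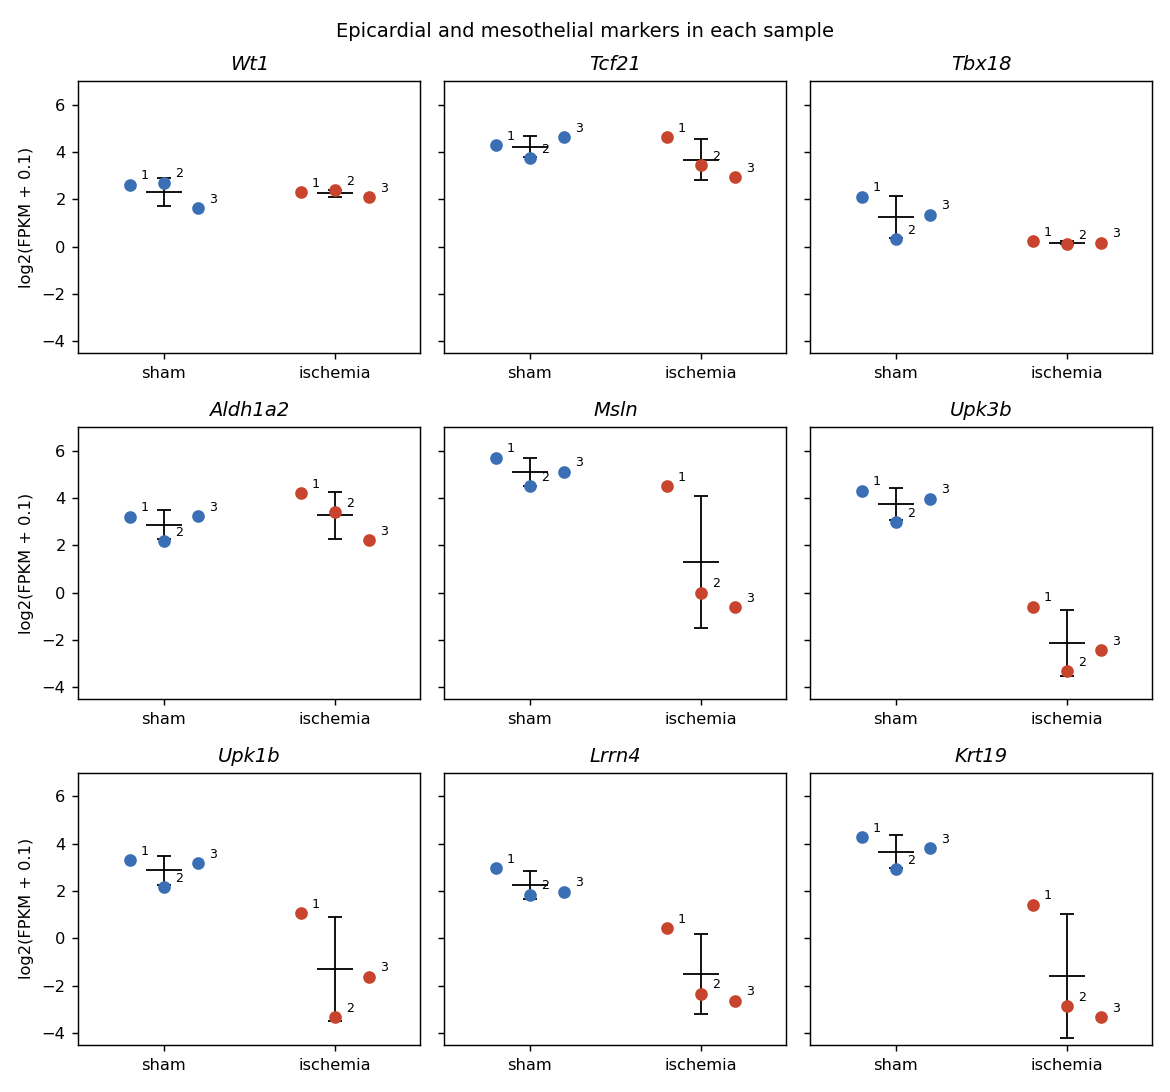
Level of each gene in each sample, as log2(FPKM + 0.1) on the vertical axis, with sham in blue, ischemia in red, the replicate number beside each point, and the mean ± SD of the log2 values in black (n = 3). The surface genes *Msln*, *Upk3b*, *Upk1b*, *Lrrn4* and *Krt19* are lowest in ischemia replicates 2 and 3, whereas the *Wt1* points of ischemia fall between those of sham.

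Ischemia replicate 1 also differed from sham in the proportions of these genes. The FPKM of *Msln* was 2.64, 2.91 and 2.23 times that of *Upk3b* in sham. It was 40.0 times that of *Upk3b* in ischemia replicate 1 and 6.46 times in ischemia replicate 3, and no ratio exists for ischemia replicate 2, where *Upk3b* had no counts. The same library stood apart in airway transcripts. A list of 7 lung epithelial genes had a summed FPKM of 426.8 there, against 6.63 to 22.9 in sham and 64.0 and 19.6 in the other ischemia samples. Lung is covered by mesothelium too, and the part of lung tissue in the *Msln* level of this sample was not tested.

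Without ischemia replicate 1, 6 of the 9 genes were lower in ischemia at an edgeR adjusted p under 0.05, where 7.98% of all tested genes were called lower. The sample left out held the highest ischemia level of each of these 6 genes, so its removal favours their calls and is not a separate test. Leaving out any other sample gave fewer calls among the 9. The log2 fold changes were then -9.43 ± 0.94 (SE) for *Krt19*, -8.25 ± 1.17 for *Upk3b*, -6.06 ± 1.46 for *Upk1b*, -6.01 ± 0.53 for *Lrrn4*, -5.73 ± 0.43 for *Msln* and -1.15 ± 0.26 for *Tcf21*. Ischemia replicates 2 and 3 held 4 and 0 counts of *Krt19*, 0 and 8 of *Upk3b* and 0 and 30 of *Upk1b*. The sizes for these genes are thus near the floor and uncertain. *Wt1*, *Tbx18* and *Aldh1a2* were not called in that fit. Calls also became more frequent in other lists there, with 5 of 6 adipocyte genes, 5 of 13 retinoic acid genes, 2 of 6 atrial genes and 2 of 9 fibroblast genes called, against 0, 1, 0 and 0 with all samples. These list counts are calls in either direction, so the share of 7.98%, for genes called lower only, is not their background. Without sham replicate 1, the library with few Y-linked counts, edgeR called 0 of all 13964 genes in either direction, these 9 included, and the log2 fold changes were -5.77 for *Upk3b*, -3.69 for *Krt19*, -3.23 for *Upk1b*, -3.08 for *Lrrn4*, -1.93 for *Msln* and -0.90 for *Tbx18*. With all 6 samples, edgeR called 0 of the 9 genes lower, where it called 1.53% of all tested genes lower, and 0 of the 9 higher, where it called 5.18% higher. At an unadjusted p under 0.05, edgeR had 3 of the 9 genes lower, namely *Upk3b*, *Tbx18* and *Lrrn4*, against 14.2% of all tested genes. DESeq2 called *Tbx18*, *Upk3b* and *Lrrn4* lower at an adjusted p under 0.05, or 3 of the 9 genes, with 12.5% of all tested genes called lower. In 6 of the 9 genes every ischemia sample was below every sham sample in scaled CPM, where 19.1% of all tested genes were so ordered, and in 0 of the 9 was every ischemia sample above, where 22.0% were. These 6 were the surface genes and *Tbx18*, and for *Msln* the order rests on the scaling. The median log2 fold change was -2.22 over the 9 genes, 8 of them below 0, and -0.0015 over all tested genes. The median of the 9 was -5.73 without ischemia replicate 1 and -3.77 with limma on log2(FPKM + 0.1). An exact permutation test on a single gene cannot go below 0.1 with 3 samples against 3.

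**Figure D2:**
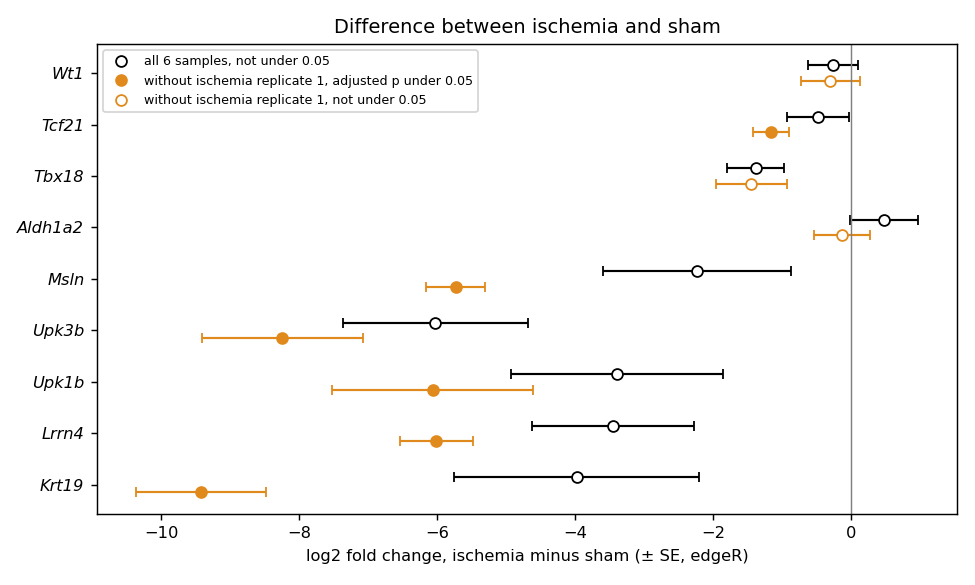
Log2 fold change of ischemia against sham on the horizontal axis, with the SE as bars, for all 6 samples (black) and without ischemia replicate 1 (orange), filled where the edgeR adjusted p was under 0.05. No black point is filled, and the 5 surface genes and *Tcf21* are filled in orange, where the ischemia sample with their highest levels is left out.

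Promoters of the surface genes are shown because these genes were low in the same samples, and that of *Wt1* because it was not. RefSeq windows on GRCr8 were matched by symbol for 7 of the 9 genes, and *Msln* and *Krt19* had none. Each line holds the 250 bases before the start of the gene, 5′ to 3′ on the strand of the gene. Capitals mark matches, on either strand, to 5 short motifs. CATTCC is the core letters bound by TEAD factors, which occurred in 11.8% of 27457 rat windows of this length. The GATA core AGATAA occurred in 10.0%, and the box named CCAAT in 34.3%. For the TATA box (TATAAA) the share was 13.1% and for a GC box (GGGCGG) 32.4%. The windows were chr12:26274241-26274490 (minus strand) for *Upk3b*, chr11:75459131-75459380 (plus) for *Upk1b*, chr3:140603987-140604236 (minus) for *Lrrn4* and chr3:112021759-112022008 (plus) for *Wt1*.
Upk3b: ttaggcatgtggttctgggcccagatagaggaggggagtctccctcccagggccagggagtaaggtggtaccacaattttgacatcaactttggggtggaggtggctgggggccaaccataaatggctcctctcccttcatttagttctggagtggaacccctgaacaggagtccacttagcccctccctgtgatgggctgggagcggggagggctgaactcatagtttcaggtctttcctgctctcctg
Upk1b: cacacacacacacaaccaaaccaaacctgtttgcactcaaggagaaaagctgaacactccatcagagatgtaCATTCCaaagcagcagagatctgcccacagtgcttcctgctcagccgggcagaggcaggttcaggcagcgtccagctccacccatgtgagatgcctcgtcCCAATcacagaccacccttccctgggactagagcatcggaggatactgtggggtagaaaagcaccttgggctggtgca
Lrrn4: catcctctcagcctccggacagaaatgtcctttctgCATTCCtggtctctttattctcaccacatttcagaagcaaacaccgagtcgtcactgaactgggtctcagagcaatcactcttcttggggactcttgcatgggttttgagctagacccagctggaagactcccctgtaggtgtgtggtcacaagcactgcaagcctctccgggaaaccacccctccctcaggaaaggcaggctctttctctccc
Wt1: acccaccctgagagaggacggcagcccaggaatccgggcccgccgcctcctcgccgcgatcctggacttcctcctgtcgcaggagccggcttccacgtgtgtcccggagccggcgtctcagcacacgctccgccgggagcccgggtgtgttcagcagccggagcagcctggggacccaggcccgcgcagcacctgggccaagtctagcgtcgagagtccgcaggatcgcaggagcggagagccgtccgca

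*Upk1b* and *Lrrn4* each held 1 match to CATTCC, at -178 and -214 from the start. *Upk1b* also held a CCAAT box at -78, and *Upk3b* and *Wt1* held no match to any of the 5 motifs. The GC content was 71.6% for *Wt1*, with 27 CpG dinucleotides, and 56.4%, 54.8% and 53.2% for *Upk3b*, *Upk1b* and *Lrrn4*, with 1, 4 and 4 CpG dinucleotides. The windows of *Tcf21*, *Tbx18* and *Aldh1a2*, not shown, had 53.6%, 55.6% and 77.2% GC, with 7, 12 and 41 CpG dinucleotides. In GC content *Tcf21* and *Tbx18* were thus close to the surface genes. *Tcf21* held 1 match to AGATAA at -49, and *Tbx18* and *Aldh1a2* each held 1 match to CCAAT, at -84 and -85. The median GC content of all windows was 52%. These matches describe the letters only.

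Among the transcription factors, *Wt1* had 1206, 1358 and 574 counts in sham against 1051, 1008 and 781 in ischemia. Mean FPKM was 5.15 ± 1.85 against 4.73 ± 0.482 (SD, n = 3), so that the ischemia samples lay inside the sham range. The log2 fold change was -0.25 ± 0.36 (SE; edgeR adjusted p 0.648). The table lists it at chr3:95133713-95180564 (plus strand).

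The surface genes were also set against *Wt1* within each library, which needs no scaling between samples. *Msln* stood at 8.58, 3.51 and 11.4 times the FPKM of *Wt1* in sham against 4.60, 0.174 and 0.131 times in ischemia. *Krt19* stood at 3.16, 1.17 and 4.60 times in sham and at 0.528, 0.0071 and 0 times in ischemia. For *Upk3b* the ratio was 3.25, 1.21 and 5.11 in sham and 0.115, 0 and 0.0203 in ischemia. In ischemia replicates 2 and 3 each of these ratios was below every sham ratio.

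*Tcf21* had FPKM values of 19.4, 13.3 and 24.6 in sham against 24.7, 10.7 and 7.61 in ischemia. The highest value of all 6 samples was ischemia replicate 1 and the lowest were the other ischemia samples, so the groups overlapped. The log2 fold change was -0.47 ± 0.46 (SE; edgeR adjusted p 0.491). Its row lies at chr1:23906717-23909566 (plus strand). Set against *Pdgfra*, a receptor gene of fibroblasts, it stood at 1.02, 1.48 and 1.30 times the FPKM in sham and 1.68, 1.01 and 0.842 times in ischemia, with the groups overlapping.

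*Tbx18*, the least abundant of the 9 genes per length in sham, had 1479, 427 and 827 counts in sham against 411, 336 and 335 in ischemia. The ischemia samples were alike, at 1.08, 0.971 and 1.02 FPKM, and just below sham replicate 2 at 1.14, while sham replicates 1 and 3 reached 4.21 and 2.47. The log2 fold change was -1.38 ± 0.42 (SE; edgeR adjusted p 0.0870). *Tbx18* is also made by mural cells and by the sinoatrial node, and the part of these cells in its level was not tested. The row of this gene spans chr8:95359354-95387363 (minus strand), where a pseudogene with a mean FPKM of 0.0706 overlaps it on the opposite strand.

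*Aldh1a2* alone of the 9 had a fold change above 0 on the log2 scale, at 0.49 ± 0.50 (SE; edgeR adjusted p 0.518). Its FPKM was 9.17, 4.41 and 9.22 in sham against 18.2, 10.5 and 4.53 in ischemia. Both the highest and nearly the lowest sample were in ischemia, and the sign turned to -0.12 without ischemia replicate 1. The table lists it at chr8:77640222-77719489 (plus strand).

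By level per length, the order in sham was *Msln*, *Tcf21*, *Upk3b*, *Krt19*, *Upk1b*, *Aldh1a2*, *Wt1*, *Lrrn4* and *Tbx18*, from 36.2 down to 2.61 mean FPKM. The ranges of neighbours in that order overlapped over the sham samples. Within every sham library, however, *Msln* was above *Tcf21*, *Upk3b* above *Krt19*, *Krt19* above *Upk1b* and *Lrrn4* above *Tbx18*. The other neighbours changed order between sham libraries. In ischemia *Tcf21* and *Aldh1a2* came first, at 14.3 and 11.1 mean FPKM, and *Upk3b* came last at 0.215. *Msln* followed *Aldh1a2* in the ischemia mean, at 7.94, with 22.4 in replicate 1 and under 1 in the others.

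**Figure D3:**
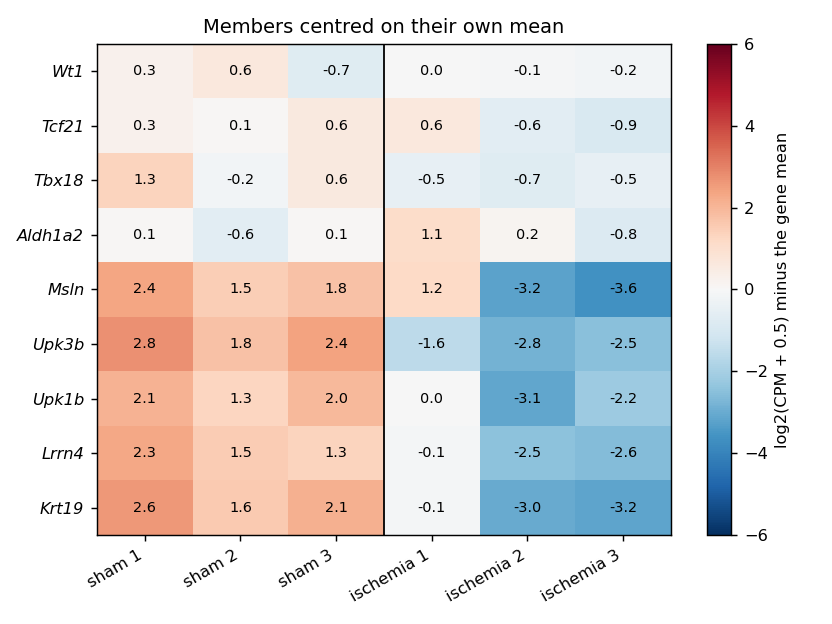
Each cell gives the log2(CPM + 0.5) of a gene (rows) in a sample (columns) minus the mean of that gene over the 6 samples. CPM is the count scaled by library size and by trimmed mean of M-values. The 5 lower rows (surface genes) change sign between sham and ischemia replicates 2 and 3, and *Msln* alone among them stays above its mean in ischemia replicate 1.

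The other genes of retinoic acid metabolism and signaling were counted from a list of 17, of which 13 were tested. In edgeR 1 was called lower and 0 higher, with a median log2 fold change of -0.50. At an unadjusted p under 0.05, 4 were lower and 2 higher in edgeR, and DESeq2 called 3 lower and 1 higher. The called gene was *Aldh1a3*, another retinaldehyde dehydrogenase, with 1105, 671 and 1960 counts in sham against 115, 121 and 17 in ischemia (log2 fold change -4.00 ± 0.76 SE, edgeR adjusted p 0.0399). The receptor gene *Rxrg*, named for its abundance, did not pass, with a log2 fold change of -2.11 (edgeR adjusted p 0.134).

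A wider list of 16 mesothelial genes was split in direction. Of the 15 genes found by symbol, 11 were tested, with 2 called higher, 2 called lower and a median log2 fold change of -0.19 in edgeR. *Rspo1*, a secreted enhancer of Wnt signaling, fell by 2.56 ± 0.45 (SE) on the log2 scale (edgeR adjusted p 0.0361), from 911, 536 and 857 counts to 234, 89 and 93 in ischemia. *Gpm6a*, a membrane glycoprotein gene, fell by 2.61 ± 0.48 (SE; edgeR adjusted p 0.0384). *Prg4* (lubricin, a lubricating proteoglycan) rose by 2.80 ± 0.50 (SE; 0.0372) and *Pdpn* (podoplanin, which is also made by lymphatic vessels and activated fibroblasts) by 2.31 ± 0.46 (SE; edgeR adjusted p 0.0430). *Ezr* (ezrin, a linker of membrane and actin), named for its abundance, had a log2 fold change of -0.19 (edgeR adjusted p 0.548). None of these 4 calls, nor that of *Aldh1a3*, held when any 1 sham sample was left out, where edgeR called 0 of all genes and the adjusted p of these genes was 0.0820 to 0.161.

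Several genes of the wider list were singled out after their values were seen. *Bnc1*, a transcription factor gene of mesothelium, was below the filter at a mean FPKM of 0.415. It had 344, 156 and 387 counts in sham and 0 in each ischemia sample, at least 99.0-fold lower against a floor of 3 counts in each ischemia library. In the edgeR fit without a filter it had an adjusted p of 0.0289. *Nkain4* had 420, 285 and 436 counts in sham and 56, 0 and 0 in ischemia (edgeR adjusted p 0.133). The simple keratins *Krt8* and *Krt18* had 817 and 468 counts in ischemia replicate 1 but at most 27 in ischemia replicates 2 and 3, against 414 to 1108 and 74 to 405 in sham. Other epithelial genes of the list stood the other way, though neither passed the test. *Krt7*, also a simple keratin, had 109, 41 and 88 counts in sham against 107, 256 and 134 in ischemia (log2 fold change 1.003, edgeR adjusted p 0.214). *Cdh1*, the E-cadherin gene, had 51, 14 and 215 counts against 405, 292 and 145 (1.51, edgeR adjusted p 0.289).

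The profile of each gene, centred log2(CPM + 0.5) over the 6 samples, was compared with that of every other tested gene by the root mean square difference. By nearness to *Msln* among all other tested genes, *Krt19* ranked 2, *Lrrn4* 4, *Upk1b* 7 and *Upk3b* 89. For *Krt19* the other surface genes ranked 4 to 16. For *Upk1b*, *Lrrn4* ranked 8 and *Krt19* 14, but *Upk3b* 93 and *Msln* 104. For *Lrrn4*, *Upk1b* ranked 4 and *Krt19* 9, but *Msln* 90 and *Upk3b* 95. For *Upk3b*, *Krt19*, *Upk1b* and *Lrrn4* ranked 11, 15 and 18, and *Msln* 175. The nearest gene to both *Upk1b* and *Lrrn4* was *C4b*, at 0.247 and 0.303, followed by *Igsf1* and *Smim5* for the former and *Wfdc21* and *Smim5* for the latter. The nearest named genes were *Art1*, *Krt19* and *Wfdc21* for *Msln*, *Smim5*, *Islr* and *Upk1b* for *Krt19*, and *Fndc1*, *Cpne1* and *Smim5* for *Upk3b*.

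The transcription factors and *Aldh1a2* had other neighbours. The member nearest to *Wt1* was *Tcf21*, at rank 9814 of the tested genes. For *Aldh1a2* it was *Tcf21* at rank 370, and the nearest named genes to *Aldh1a2* were *Mgp*, *Lrp1* and *Plpp6*. Those of *Tcf21* were *Ccdc189*, *Igf1* and *Larp6*, those of *Tbx18* were *Dnmt3b*, *Creb3l2* and *Ppip5k2*, and those of *Wt1* were *Rreb1*, *Adamts7* and *Slc25a30*. These ranks rest on 6 libraries, and the measure reads the size of the differences as well as the order of samples.

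Markers of other cell types also differed between the libraries, and their part in the levels of the 9 genes was not tested. For 6 atrial genes the median log2 fold change was -3.60, and the summed FPKM was 48457, 252.3 and 39432 in sham against 9643, 2084 and 1288 in ischemia. EdgeR called 0 of the 6, with 2 lower at an unadjusted p under 0.05, and DESeq2 called 1. The *Myl4* and *Nppa* log2 fold changes were -3.54 ± 2.33 and -2.42 ± 1.66 (SE; edgeR adjusted p 0.321 and 0.337). They moved with the samples used. For *Nppa* the log2 fold change was -1.78 without sham replicate 1 and -3.01 without sham replicate 2. *Nppa*, the atrial natriuretic peptide gene, carried most of the sum in ischemia replicates 2 and 3, at 2051 and 1251 FPKM against 67.7 in sham replicate 2. The other 5 atrial genes summed to 15232, 184.6 and 14321 FPKM in sham against 2212, 33.1 and 37.1 in ischemia, so that without *Nppa* ischemia replicates 2 and 3 were the lowest libraries, as they were for the surface genes. With the atrial genes as a covariate, *Upk3b* was -5.35 ± 1.15 (SE; edgeR adjusted p 0.203). *Krt19*, *Lrrn4*, *Upk1b* and *Msln* were at -3.65, -3.06, -2.84 and -1.91. Larger shifts were those of *Tbx18*, to -0.76 (edgeR adjusted p 0.459), and *Aldh1a2*, to 1.10 (0.301). In that fit edgeR called 0 of all 13964 genes, these 9 included, with 2269 at an unadjusted p under 0.05. The median of the 5 ventricular genes was -0.067 with 0 calls in edgeR, 0 at an unadjusted p under 0.05 and 0 in DESeq2, with *Myl3* at 0.20 and *Myh7* at 0.86 (edgeR adjusted p 0.905 and 0.400). That median hides a wide spread within sham. The summed FPKM of the 5 was 1799, 13498 and 1992 in sham against 9518, 4660 and 9499 in ischemia. It was lowest in sham replicates 1 and 3, the libraries with the highest atrial sums.

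The 6 adipocyte genes, which mark fat cells wherever they lie, had a median of -3.47 with 0 calls in edgeR, 1 lower at an unadjusted p under 0.05 and 2 in DESeq2. *Adipoq*, the adiponectin gene, had 1969, 3196 and 13799 counts in sham against 1990, 7 and 8 in ischemia, so that it shared with the surface genes the gap at ischemia replicates 2 and 3 (edgeR adjusted p 0.280), while *Cfd* was at -1.29 (0.290). The median of 9 fibroblast genes was -0.95 with 0 calls in edgeR, while 4 were lower and 1 higher both at an unadjusted p under 0.05 and in DESeq2. *Col3a1* stood at -2.22 (edgeR adjusted p 0.0969) and *Dcn* at -0.95 (0.194). Among 10 mural cell genes the median was -0.79, and *Abcc9* fell by 1.34 (edgeR adjusted p 0.0351) while *Acta2* and *Tagln* did not pass, at -1.78 and -1.43 (0.205 and 0.289). *Acta2* and *Tagln* had 42768 and 28522 counts in sham replicate 3, against at most 8173 and 6353 in the other sham samples. The median of 5 endothelial genes was -0.12 with 0 calls in edgeR and 1 lower both at an unadjusted p under 0.05 and in DESeq2, with *Cdh5* at -0.21 and *Vwf* at 0.16 (edgeR adjusted p 0.665 and 0.792).

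In the other direction, 9 of 10 neutrophil and monocyte genes were called higher in edgeR, with a median of 6.31. *Retnlg*, a resistin-like gene of neutrophils, had 0 counts in each sham sample and 434, 765 and 336 in ischemia, at least 172-fold higher against a floor of 3 counts in each sham library. With *Retnlg* at that bound the median was again 6.31. *Mmp8*, *S100a8* and *S100a9* rose by 7.63, 6.91 and 6.72 on the log2 scale and *Lyz2* by 4.09 (edgeR adjusted p 0.0445, 0.0311, 0.0365 and 0.0366). Of 5 tested lung epithelial genes only *Napsa* was called, at 3.79 (edgeR adjusted p 0.0382), and *Scgb1a1* was at 4.70 (0.329). *Napsa* was highest in ischemia replicate 2, at 8405 counts, where *Scgb1a1* had 0 counts.

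**Figure D4:**
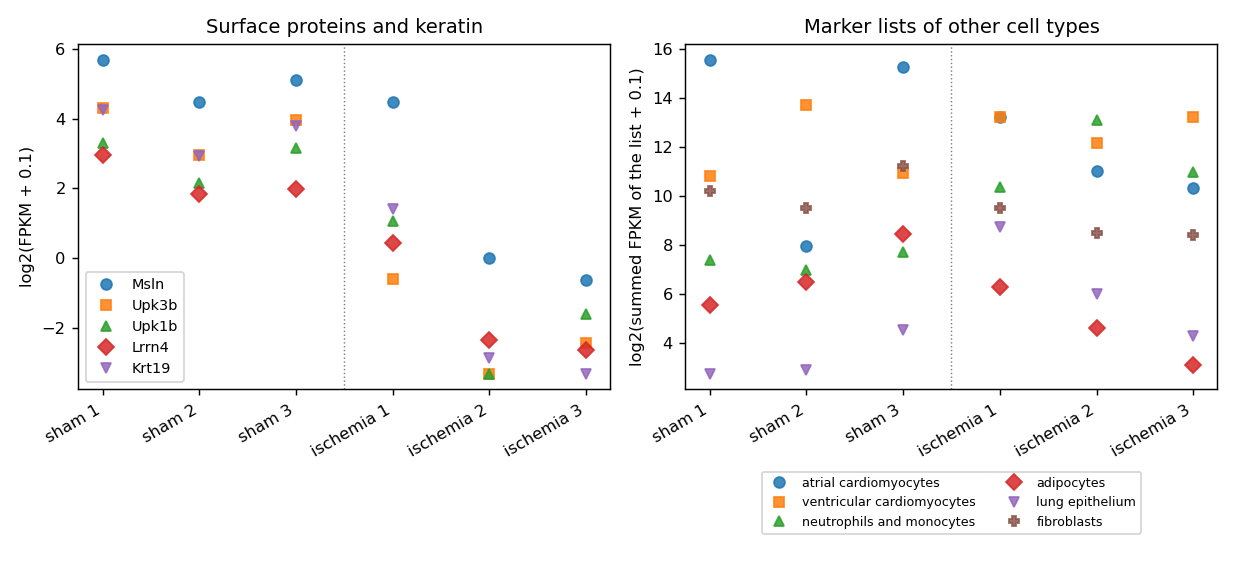
The left panel gives log2(FPKM + 0.1) of the 5 surface genes in each sample, and the right panel log2 of the summed FPKM + 0.1 of 6 marker lists, with sham left and ischemia right of the dotted line. The surface genes drop at ischemia replicates 2 and 3, the lung list peaks at ischemia replicate 1, and the summed FPKM of the atrial list, which rests on *Nppa* in ischemia replicates 2 and 3, is lowest at sham replicate 2.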

How the data were processed

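Raw read counts per gene and FPKM were deposited by the authors in 1 table. The counts were not normalized, and FPKM had been scaled by the authors by gene length and library size, with 0.0001 in place of 0. Libraries came from a stranded total RNA kit. The submitters' processing notes name STAR and HTSeq, while versions, genome build and the strand setting of the counting are not given in the sources used here.

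Genes averaging 0.5 FPKM or more across the 6 samples (13964 of 32623) were tested with the quasi-likelihood test of edgeR 4.0.16 (R 4.3.3) on counts scaled by trimmed mean of M-values, setting ischemia against sham, with no covariate. All p-values are two-sided, the Benjamini-Hochberg adjustment ran over the 13964 genes, calls were made at 0.05, and SEs were derived from the F statistic. The procedure was tested on simulated data. Alternatives used limma 3.58.1 on log2(FPKM + 0.1) and log2(FPKM + 1), DESeq2 1.42.0, other scalings and filters, the replicate number as a block, an atrial covariate and samples left out. Figures used matplotlib 3.10.9 in Python 3.11.15.

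The 9 genes and the marker lists (wider mesothelial, retinoic acid, fibroblast, mural, atrial, ventricular, neutrophil and monocyte, adipocyte, lung epithelial, endothelial) were chosen with earlier results of these data known. Of each other list, genes past the threshold (at most 4, by size of change) and the 2 with the highest mean FPKM were named, and for each of the 9 genes the 3 nearest in profile, passing over placeholder symbols. A gene that this rule names is not reported here. *Bnc1*, *Nkain4*, *Krt8*, *Krt18*, *Krt7*, *Cdh1*, *Myl7*, *Pdgfra* and the Y-linked genes were named after their values were seen. Of the lists, *Muc16*, *Col1a2* and *Pecam1* had no row under these symbols, and *Crabp2* had 2 rows, of which the more abundant was used. Intervals and floors cover counting error only.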

Additional observations from a re-analysis of the deposited data

How the results depend on the processing

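The log2 fold changes of *Msln*, *Upk3b*, *Upk1b*, *Lrrn4*, *Krt19* and *Tbx18* were below 0 under every alternative in which they were tested, while their calls depended on the setting. The number of the 9 genes called lower was 1 with median-ratio scaling and 3 with DESeq2 and with limma at a pseudocount of 0.1. It was 4 with limma at a pseudocount of 1, which called *Upk3b*, *Upk1b*, *Lrrn4* and *Krt19*. At a mean FPKM of at least 5, where only 5 of the 9 genes were tested, 1 was called lower. The shares of all tested genes called lower can be read from 253 of 13964 with median-ratio scaling, 291 of 8156 at that filter, and 262 and 209 of 13964 with limma. Over all genes, DESeq2 called 2071 higher and 1742 lower, total-count scaling 83 lower and no filter 93 lower. With the atrial covariate 0 were higher and 0 lower, with 2269 at an unadjusted p under 0.05.

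Leaving out 1 sample at a time in edgeR gave 0 to 6 of the 9 genes lower (6 without ischemia replicate 1, 1 without ischemia replicate 2, where 109 of 13964 genes were lower, and 0 otherwise), and over all genes 0 to 1490 higher and 0 to 1115 lower. Without sham replicate 1, 2 or 3 or ischemia replicate 3 no gene passed, with 3090, 3809, 3255 and 3020 at an unadjusted p under 0.05. The calls of *Prg4*, *Pdpn*, *Gpm6a*, *Rspo1* and *Aldh1a3* were thus lost, at log2 fold changes of 2.47 to 3.39, 2.24 to 2.43, -2.89 to -2.38, -2.71 to -2.40 and -4.28 to -3.54. Without ischemia replicate 2, *Pdpn* was the one of these 5 still called, and with total-count scaling *Pdpn* (adjusted p 0.0507) and *Aldh1a3* (0.05003) were not called. A block for the replicate number left 0 genes higher and 0 lower, with a median log2 fold change of -4.19 over the 9 genes and 3349 genes at an unadjusted p under 0.05. The numbers did not pair the samples, since same-numbered samples had correlations of deviations of -0.050, -0.074 and -0.19.

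Signs turned, in each case without a call, for *Tcf21* (0.0064), *Nppa* (3.80), *Myl4* (1.44) and *Myl3* (-0.019) with the atrial covariate, which is built from *Nppa* and *Myl4* among others and so tests nothing for these, and for *Scgb1a1* (-2.16) with the replicate block. Leaving out 1 sample turned the sign of 6 genes, with log2 fold changes of -0.56 to 0.069 for *Wt1*, -0.12 to 0.84 for *Aldh1a2*, -0.29 to 2.46 for *Myl3*, -5.62 to 8.91 for *Scgb1a1*, -0.41 to 0.13 for *Cdh5* and -0.29 to 0.43 for *Vwf*. The cause was not tested. In the libraries without counts, the levels of *Upk3b*, *Upk1b* and *Krt19* are limited by depth.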
